A study of Mus musculus with 23 samples.

Results

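The comparison was between CD25+ and CD25- CD4+ T cells recovered from mice in which a peptide antigen had been delivered to dendritic cells. It comprised 3 CD25+ and 4 CD25- arrays, 7 of the 23 in the series, taken by their titles. The donor cells were CD4+CD25- T cells of HA6.5/Thy1.2/RAG-/- mice on the Balb/c background, which carry a transgenic T cell receptor and cannot rearrange receptors of their own. They were transferred into Balb/c mice, which received DEC-HAPeptide (50 ng per mouse) in 1 injection. After 3 weeks, cells from spleen and lymph nodes were sorted as CD3+ and negative for B220, CD8a and CD11b/c, then as CD4+CD25+ or CD4+CD25-. Mice of all groups were labelled male and aged 6 to 10 weeks, and 5 to 10 mice were pooled for each array of this experiment. All 7 arrays thus share the transfer, the peptide and the host, and no group without peptide was analysed here. The sort described in the labels names no donor marker, and the Balb/c hosts have CD4+ T cells of their own, so the share of donor cells on each array is not known.

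Regulatory T (Treg) cells are CD4+ T cells that hold immune responses in check and whose lineage factor is Foxp3. They can arise outside the thymus when a T cell meets its antigen under conditions that do not favour full activation. Antibodies against DEC-205, an endocytic receptor of dendritic cells, carry a linked peptide into these cells, which then present it without inflammation. CD25, the alpha chain of the interleukin-2 receptor, is encoded by Il2ra and is abundant on most Treg cells. Activated conventional T cells can carry CD25 as well, so the sort by itself does not define Treg cells. Other groups of the series served as a background for some values. In the homeostatic experiment, Foxp3-GFP- CD4+ T cells of BDC2.5/NOD mice were transferred into NOD RAG-/- mice and sorted after 14 days as Foxp3-GFP+ or Foxp3-GFP- (3 arrays each, 2 to 3 mice per array). Lamina propria Treg and conventional T (Tconv) cells were sorted by Foxp3-GFP from the small intestine of C57BL/6-Foxp3/GFP mice (2 arrays each, 4 to 6 mice per array). Treg cells of peripheral lymph nodes came from the same strain as Foxp3-GFP+ cells in 3 groups, CD103-Klrg1-, CD103+Klrg1- and CD103+Klrg1+ (2 arrays each, 4 to 6 mice per array). Strain, host, site, time and sort marker differ together between these experiments.

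RNA was amplified in 2 rounds and hybridised to Affymetrix M430v2 arrays. Levels are log2 intensities after quantile normalization of all 23 arrays, and values of single arrays are given in the order of their replicate numbers. A log2 difference of 1 is a doubling, and differences carry their standard error (SE). A gene was called when the Benjamini-Hochberg adjusted p of limma's moderated test, over the 12502 genes tested, lay under 0.05. CD25- replicates 3 and 4 were dim, with median intensities of 68.5 and 63.7 before normalization against 77.0 to 81.1 on the other 5 arrays, so results were also computed without them. Both correlated least with the other CD25- arrays, at a mean r of 0.933 and 0.947 across genes. A sign of RNA quality moved with replicate 3 for Gapdh and with both for Actb. The Gapdh signal at the 3′ end exceeded that at the 5′ end by 6.59 (log2) on CD25- replicate 3, against 2.37 to 3.92 on the other 6 arrays. Among these, CD25- replicate 4 was at 2.79. For Actb the excess was 4.04 and 3.63 on CD25- replicates 3 and 4, against 1.81 to 3.39 on the other 5. The part of RNA quality in the results was not tested. Labels and data disagreed on sex. Xist, the RNA of the inactive X chromosome, lay at 12.25 to 13.22 on all 7 arrays, whereas all other groups had means of 6.56 to 7.50. The Y-linked transcript Eif2s3y lay at 2.93 on CD25+ replicate 1 and 2.86 on CD25- replicate 1, against 8.26 to 9.14 on the other 5 arrays. Kdm5d, also on the Y chromosome, lay at 3.87 and 3.54 on these 2 arrays and at 5.90 to 6.45 on the others. Arrays numbered 1 thus stood apart in both sort groups, and results were also computed without both.

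**Figure D1:**
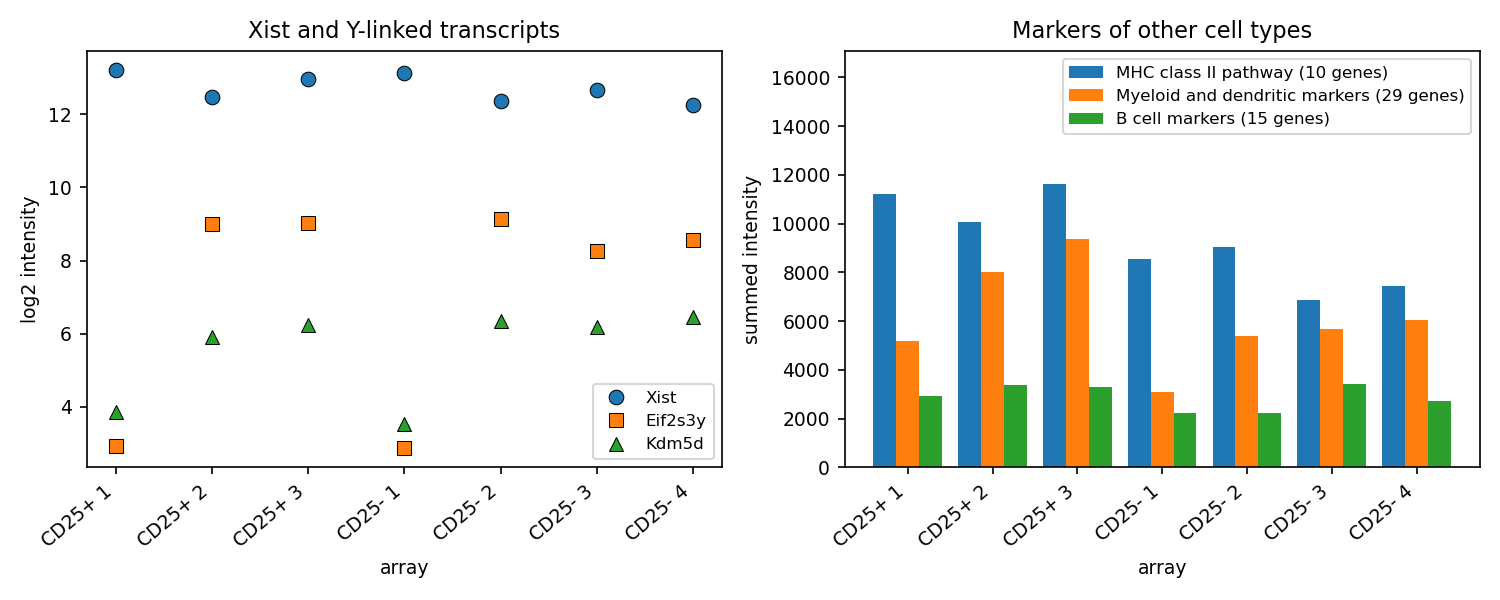
Left, log2 intensity of Xist, Eif2s3y and Kdm5d on each of the 7 arrays. Both arrays numbered 1 lack the Y-linked signal, at 2.93 and 2.86 for Eif2s3y, while Xist exceeds 12 on every array. Right, summed linear intensity of the measured markers of 3 other cell types, which for MHC class II runs from 10066 to 11626 on the CD25+ arrays and from 6859 to 9040 on the CD25- arrays.

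Of 6 marker genes of Treg and conventional T cells, Il2ra, Foxp3, Itgae, Gpr83 and Ikzf4 were called higher and Il7r lower in the CD25+ cells. Without the dim arrays all 6 kept their calls, at 3.62, 2.76, 2.99, 2.12, 1.85 and -1.17 in that order. With the 7 arrays fitted by themselves only Il2ra and Gpr83 kept theirs, and Foxp3, Itgae, Ikzf4 and Il7r were not called. Il2ra was measured at 9.79, 10.28 and 10.26 in CD25+ cells and at 5.92, 7.13, 6.74 and 6.22 in CD25- cells. The groups did not overlap, and the log2 difference was 3.61 ± 0.29 (SE, adjusted p = 1.36e-06), or 12.2-fold. As the gene of the sort marker, Il2ra checks the sort. Foxp3 stood at 10.42, 10.36 and 10.46 in CD25+ cells and at 6.90, 8.42, 9.0 and 8.63 in CD25- cells. The CD25+ arrays were nearly equal, the CD25- arrays spread over about 2 log2 units with replicate 1 lowest, and the difference was 2.18 ± 0.33 (adjusted p = 0.00292), or 4.52-fold. Gpr83, a G protein-coupled receptor known as a Treg marker, was at 9.73, 10.11 and 10.06 against 7.81, 7.92, 7.84 and 7.49. Here every group was tight, and the difference was 2.21 ± 0.23 (adjusted p = 6.85e-05). Ikzf4 encodes Eos, a zinc finger protein that acts with Foxp3 in gene silencing, and lay at 10.32, 10.38 and 10.38 against 9.01, 8.02, 7.53 and 9.18. Its difference was 1.93 ± 0.30 (adjusted p = 0.00316), with CD25- replicates 2 and 3 lowest.

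Itgae encodes CD103, the integrin alpha chain that pairs with beta7 and binds E-cadherin. It was at 8.65, 10.57 and 10.42 in CD25+ cells and at 5.94, 7.90, 8.21 and 7.37 in CD25- cells. In both groups replicate 1 was lowest, and each of the 3 numbered pairs differed by 2.21 to 2.71. The difference of 2.53 ± 0.47 (adjusted p = 0.0136) had an adjusted p of 0.000119 with the replicate number as a block. It lost its call without CD25+ replicate 2 (adjusted p = 0.138) and without CD25+ replicate 3 (adjusted p = 0.107). Il7r, the alpha chain of the interleukin-7 receptor, is low on most Treg cells. It was at 11.46, 10.84 and 11.01 in CD25+ cells and at 12.32, 12.23, 12.50 and 12.12 in CD25- cells, and fell by 1.19 on the log2 scale (SE 0.16, adjusted p = 0.00105). Il7r thus remained among the brighter genes in both groups. With the mean of its probe sets in place of the brightest one, its adjusted p was 0.165. Klrg1, a receptor of terminally differentiated T cells and a sort marker elsewhere in the series, was not called, at 0.89 ± 0.34 (adjusted p = 0.296). It lay at 8.45, 8.67 and 9.27 in CD25+ cells and at 6.81, 8.06, 8.51 and 8.24 in CD25- cells, so the groups overlapped.

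**Figure D2:**
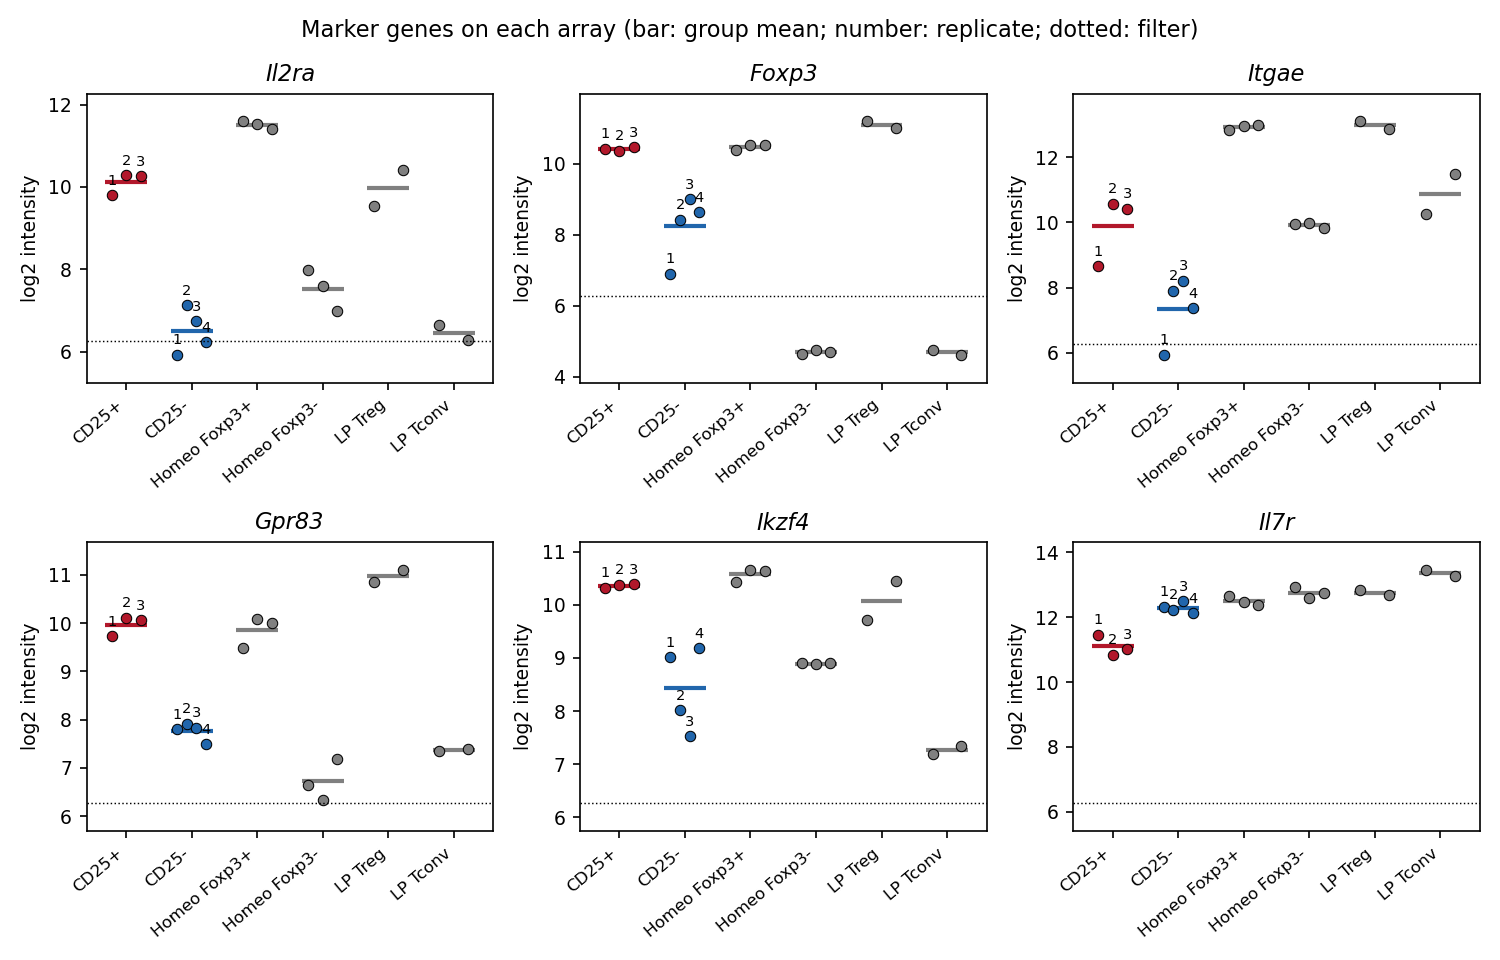
Log2 intensity of the 6 marker genes on single arrays (points) with group means (bars) in the CD25+ and CD25- cells, with replicate numbers, and in the homeostatic and lamina propria groups. Foxp3 in CD25- cells (6.90 to 9.0) lies between the CD25+ cells and the Foxp3-GFP- groups, and Il7r is lower in CD25+ cells.

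The CD25- cells were not devoid of Foxp3 signal. Their mean of 8.24 ± 0.92 (SD, n = 4) lay above that of homeostatic Foxp3-GFP- cells, 4.70 ± 0.06 (SD, n = 3), and of lamina propria Tconv cells, at 4.76 and 4.62. Foxp3 in CD25+ cells, 10.42 ± 0.05 (SD, n = 3), was close to homeostatic Foxp3-GFP+ cells at 10.48 ± 0.07 (SD, n = 3). In order of level, Foxp3 ran from lamina propria Tconv and homeostatic Foxp3-GFP- cells through CD25- cells to a cluster of all other groups between 10.26 and 11.12. Within that cluster, neighbouring groups overlapped or differed by about their spread. In pooled RNA, fewer cells with a transcript and less transcript in each cell cannot be told apart. The change in Foxp3 was smaller here than between homeostatic Foxp3-GFP+ and Foxp3-GFP- cells, by 3.60 ± 0.48 (SE of the difference, adjusted p = 0.000826). It was also smaller than between lamina propria Treg and Tconv cells, by 4.23 ± 0.54 (adjusted p = 0.000381). The other experiments were sorted by Foxp3 itself and this one by CD25, so the sort marker and the size of the change cannot be told apart. Homeostatic Foxp3-GFP- cells and lamina propria Tconv cells lay below the level of 6.27 that a gene had to exceed in at least 1 group to be tested, so both differences are those of measured values with a bound on 1 side. Il2ra in CD25- cells (6.50 ± 0.54, SD, n = 4) was close to lamina propria Tconv cells, at 6.64 and 6.28. In CD25+ cells its mean of 10.11 ± 0.28 (SD, n = 3) lay below homeostatic Foxp3-GFP+ cells (11.51 ± 0.10) and the 3 lymph node Treg groups (11.15 to 11.34). It lay close to lamina propria Treg cells, at 9.54 and 10.40. Itgae in CD25+ cells (9.88 ± 1.07, SD, n = 3) lay well below homeostatic Foxp3-GFP+ cells (12.93 ± 0.09) and near homeostatic Foxp3-GFP- cells (9.92 ± 0.08). These cross-experiment levels are a description and were not tested.

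Of the 12502 genes tested, 78 were called (0.624%), 41 higher (0.328%) and 37 lower (0.296%) in CD25+ cells, and 63 of them changed at least 2-fold. At an unadjusted p under 0.05 there were 1662 genes. In 77 of the 78 the arrays of the groups did not overlap, against 5.83% of all genes tested (2.47% with CD25+ higher and 3.36% with CD25+ lower). The exception, Rab4a, a small GTPase of endosome recycling named here for that reason after its values were seen, fell by 1.33 on the log2 scale and lost its call without any 1 array other than CD25- replicate 1 (adjusted p = 0.0758 to 0.249). All 78 differed in the same direction in each of the 3 numbered pairs, which the lack of overlap fixes for the 77 and which is no separate support. The lack of overlap is itself largely set by calling genes on the same values, so it is no separate support either. With the replicate number as a block, 144 genes were called, 69 higher (0.552%) and 75 lower (0.6%), and 70 of the 78 kept their call. Without the 2 dim arrays 68 genes were called, 29 higher (0.233%) and 39 lower (0.314%), of which 44 were among the 78. Without both arrays numbered 1, 276 genes were called, 159 higher (1.26%) and 117 lower (0.93%), and 73 of the 78 kept their call. Without quantile normalization the split was 50 higher (0.399%) and 12 lower (0.0959%), so that 80.6% rather than 52.6% of calls were higher. The median difference of all genes then lay at 0.16 in place of -0.05. Single arrays moved the count widely, to 163 without CD25+ replicate 1, 25 without CD25+ replicate 2, 32 without CD25+ replicate 3 and 279 without CD25- replicate 1. None of the 78 genes changed direction in any setting in which it was tested. For the 77 without overlap, leaving out or weighting arrays could hardly change it, so those settings do not test the direction. Which direction had more calls depended on the setting.

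Among the 39 called genes named here by a fixed rule, 9 kept their call in every setting in which they were tested. These were Il2ra, Gpr83, H2-Ob, Phlpp1, Neb, Sema4a, Tdrp, Lypd6b and Il1rl2, and Neb alone was not tested when the 7 arrays were fitted by themselves. Without CD25+ replicate 2, 20 of the 39 lost their call, at adjusted p from 0.0586 (Tnfrsf18) to 0.279 (Dsp). The others were Itgae, Inpp4b, Vav2, Fgl2, Gpr34, Dapl1, Atp8b4, Fasl, Esm1, Ldlrad4, Rnf144a, Mfsd6, Fam78a, Ndrg1, Gzmb, Il10, Slamf6 and Pde7a. Without CD25+ replicate 3, 16 lost it, at 0.0539 (Vav2, Gpr34) to 0.247 (Gzmb), which were 15 of these genes and Itgb8. Leaving out CD25+ replicate 1 cost 5 calls (Dapl1, Dsp, Esm1, Il10, Inpp4b), at adjusted p of 0.0628 to 0.0776, and leaving out CD25- replicate 1 cost none. Without CD25- replicate 2, 3 or 4 in turn, 6 calls were lost each time, at adjusted p of 0.0619 to 0.0761, 0.0583 to 0.0889 and 0.0524 to 0.0944. Inpp4b, Dapl1 and Il10 were among them each time. With the mean of a gene's probe sets in place of the brightest, 7 of the 39 were no longer called: Vav2, Fgl2 (adjusted p = 0.127), Ndrg1 (0.24), Slamf6 (0.242), Atp8b4 (0.0843), Il7r and Pde7a. Enc1 and Rab4a were not called then either (adjusted p = 0.157 and 0.169). Itih5 (1.37), Ikzf4 (1.0), Slc2a3 (0.50), Dsp (-0.78), Rnf144a (-0.84), Il1rl2 (-0.85), Fasl (-1.13) and Sema4a (-1.58) kept their calls with log2 differences smaller by over 1.5 times.

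**Figure D3:**
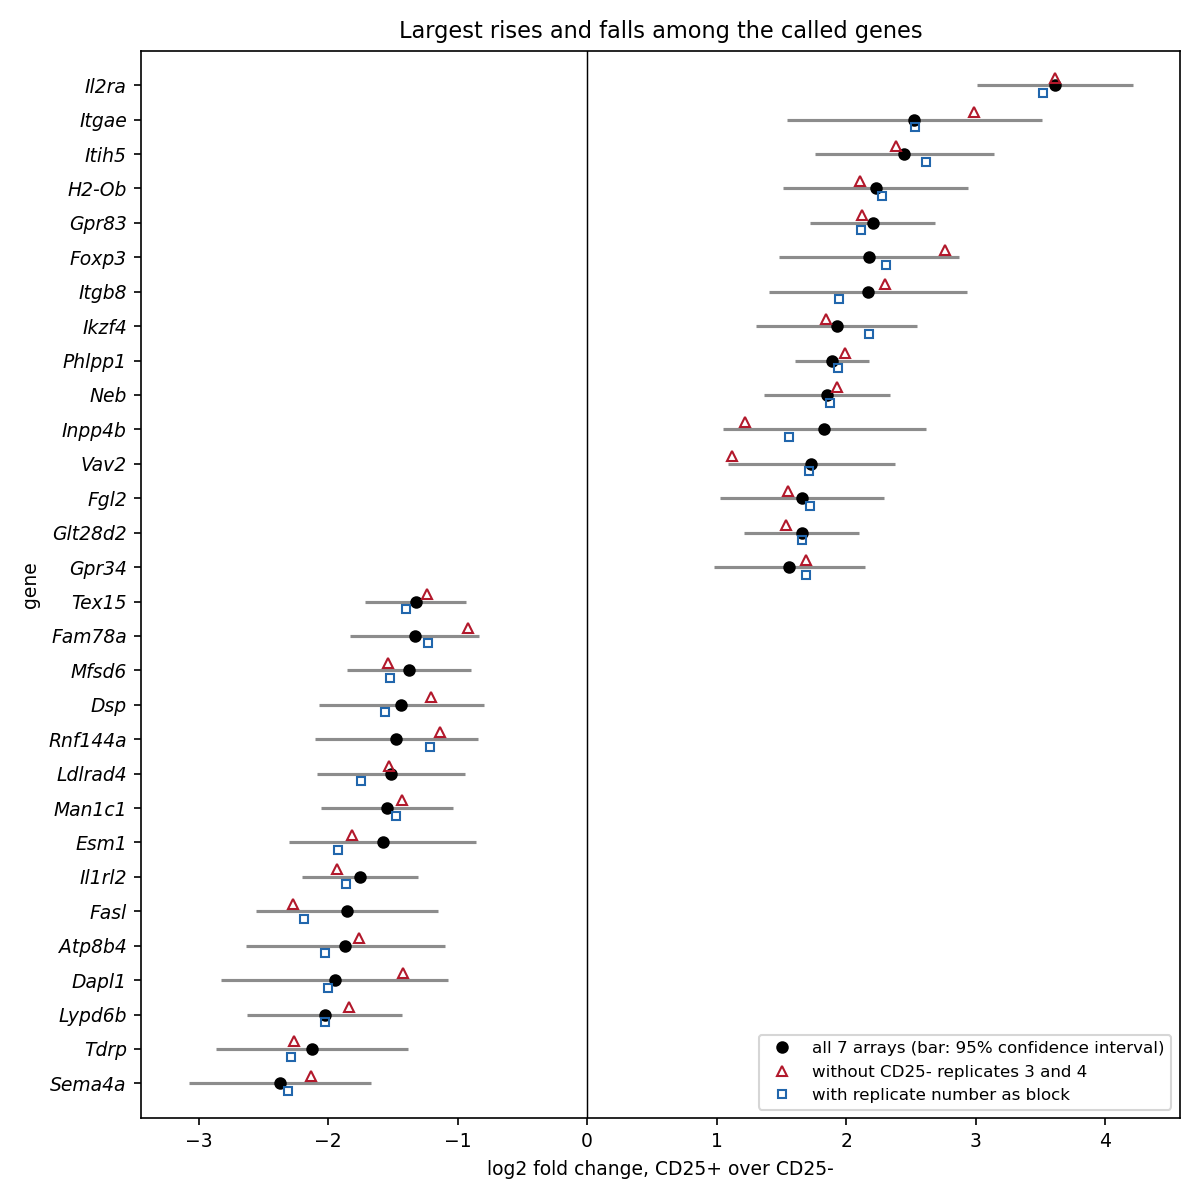
Log2 fold change of CD25+ over CD25- cells for called genes with no overlap between groups, the 15 that rose most and the 15 that fell most. Black points with bars are the fit to all arrays with 95% confidence intervals, triangles the fit without CD25- replicates 3 and 4, squares the fit with the replicate number as a block. Every mark of a gene lies on the same side of 0, which the lack of overlap all but fixes. Inpp4b and Vav2 move farthest towards 0 without the dim arrays, to 1.22 and 1.12.

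Phlpp1, a phosphatase that removes an activating phosphate from the kinase AKT, was at 9.22, 9.48 and 9.60 in CD25+ cells and at 7.58, 7.34, 7.55 and 7.69 in CD25- cells. This 3.71-fold rise (1.89 ± 0.14) had the smallest adjusted p of all genes, 6.57e-07, and held at 1.99 without the dim arrays. Inpp4b, a lipid phosphatase that acts downstream of PI3-kinase, was at 10.87, 10.10 and 10.38 against 9.95, 8.49, 8.22 and 7.79. Its CD25- values ran widely, the difference was 1.83 ± 0.37 (adjusted p = 0.0282), and it was 1.22 with an adjusted p of 0.303 without the dim arrays. Over all genes tested 0.328% were called higher and 0.296% lower, the shares beside which this and later list counts stand. Of the 17 measured genes of PI3K, AKT and FOXO signalling Phlpp1 and Inpp4b were called higher and none was called lower. The list median was -0.12 beside -0.05 for all genes (-0.18 to 0.19 over the settings). The list holds both because earlier results of these data were known. Akt2 (-0.36 ± 0.19) and Foxo3 (-0.66 ± 0.36) had the next smallest p in it and were not called. Vav2, a signalling protein that acts downstream of antigen receptors, was at 8.76, 9.15 and 8.99 against 7.64, 8.08, 6.05 and 7.17. Its 1.73 ± 0.31 (adjusted p = 0.0102) became 1.12 without the dim arrays, with the call kept (adjusted p = 0.00771), and 0.55 with the mean of its 3 probe sets, with the call lost (adjusted p = 0.0665).

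Of the integrin chains, Itgae and Itgb8 were called higher. Itgb8, whose product pairs with the alpha V chain and can release active TGF-beta from its latent complex, was at 7.62, 6.85 and 7.97 against 5.96, 4.44, 6.21 and 4.64. The CD25- mean lay below the filter of 6.27, so the rise was at least 4.5-fold (2.17 ± 0.36, adjusted p = 0.00583). Icam1, the ligand of the integrin LFA-1, was at 9.92, 10.03 and 10.00 against 8.94, 9.24, 8.62 and 9.08, a tight rise of 1.01 ± 0.17 (adjusted p = 0.00549). With Itgae, 3 of 17 integrin and adhesion genes tested were called higher and none lower, with a list median of 0.09 (-0.10 to 0.25 over the settings). Other settings gave lower calls as well, with 4 members called higher and 3 lower under array weights. Itgb3, named after its values were seen, was not called (-0.69, adjusted p = 0.374) but was called lower without the dim arrays (-1.20, adjusted p = 0.0308). The partner chains of Itgae and Itgb8 did not pass the test, with 0.09 ± 0.36 for Itgb7 and 0.12 ± 0.22 for Itgav, both looked at after the values of their partners were seen. In the TGF-beta list 1 of 19 genes was called higher (Itgb8) and 1 lower (Ldlrad4), around a median of 0.12 (-0.13 to 0.34 over the settings). Ldlrad4 encodes a membrane protein that restrains TGF-beta signals to SMAD proteins and fell from 7.10, 7.09, 7.78 and 6.39 in CD25- cells to 5.74, 5.25 and 5.75 in CD25+ cells. That fall was at least 2.85-fold (1.51 on the log2 scale, adjusted p = 0.0111). Tgfb3 (-0.50 ± 0.18) and Pmepa1 (1.07 ± 0.30) were not called.

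The remaining large rises had varied roles. Itih5, of the family that binds hyaluronan, was at 6.76, 7.65 and 8.30 against 4.88, 5.53, 4.45 and 5.64, at least 5.46-fold higher (2.45 ± 0.33, adjusted p = 0.00105). Glt28d2 rose at least 3.15-fold (1.66 ± 0.21, adjusted p = 0.000659). Neb (nebulin, a giant protein of the muscle thin filament), Fgl2 (a secreted protein that Treg cells use in suppression) and Gpr34 (a lysophospholipid receptor) had both group means below the filter. They are therefore given without a fold, with log2 differences of 1.85 ± 0.23, 1.66 ± 0.30 and 1.56 ± 0.28. Without the dim arrays the adjusted p of Fgl2 was 0.0752. Tnfrsf18 encodes GITR, a costimulatory receptor that is high on Treg cells, and rose 2.53-fold. It was at 10.69, 11.52 and 10.89 against 9.89, 9.89, 9.19 and 9.80 (1.34 ± 0.22, adjusted p = 0.00547). Of 13 TNF receptor family genes tested it was the only called one, while 10 of the differences were positive. Tnfrsf9 (1.12 ± 0.29, adjusted p = 0.091) and Tnfrsf4 (0.66 ± 0.23) were not called. Il10, the anti-inflammatory cytokine, was at 11.00, 10.85 and 10.47 against 9.74, 9.24, 8.91 and 9.14. Its rise of 1.52 ± 0.33 (adjusted p = 0.0413) was lost with the replicate block (adjusted p = 0.0546) and without the dim arrays (adjusted p = 0.328). Gzmb, the protease granzyme B of cytotoxic granules, was at 6.97, 7.77 and 8.11 against 6.45, 6.30, 6.64 and 6.71 (1.09 ± 0.23, adjusted p = 0.0384). It too lost its call without the dim arrays, at 0.0604. Slc2a3, a glucose transporter, was at 11.04, 11.00 and 10.91 against 9.78, 10.09, 9.71 and 9.98 (1.09 ± 0.15, adjusted p = 0.0013). It was the only called gene of 17 in the glycolysis list.

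H2-Ob encodes the beta chain of H2-O, a modulator of peptide loading onto MHC class II molecules that is best known from B cells. It was at 10.28, 10.05 and 10.26 in CD25+ cells and at 8.03, 8.17, 7.55 and 8.12 in CD25- cells, a rise of 2.23 ± 0.34 (adjusted p = 0.00292). It was the only called gene of 9 tested in the MHC class II list, whose median was 0.81 beside -0.05 for all genes. The next by p were H2-DMa (1.01 ± 0.33), H2-Ab1 (1.27 ± 0.51) and H2-Eb1 (0.81 ± 0.36), none of them called. The summed intensity of the 10 measured genes ran from 10066 to 11626 on the CD25+ arrays and from 6859 to 9040 on the CD25- arrays, without overlap. Its brightest member was Ctss, a protease of many cell types, at 12.31 to 12.85 on the 7 arrays, and 1 member was below the filter on all of them. The 27 myeloid and dendritic markers tested had a median of 0.46 with none called, and their sums over 29 measured genes overlapped (5192 to 9353 in CD25+ and 3079 to 6032 in CD25- cells). Their brightest members were Csf1r, Vcam1 and C1qb, with differences of 0.55 ± 0.71, 1.72 ± 0.60 and 1.88 ± 0.88, and 2 members were below the filter on all 7 arrays. The macrophage marker Cd68 lay at 6.13, 7.92 and 7.39 against 5.35, 6.34, 5.30 and 6.06. Of 12 B cell markers tested none was called (median 0.25), and their sums also overlapped (2919 to 3376 in CD25+ and 2241 to 3431 in CD25- cells). Ighm, the brightest, differed by 0.60 ± 0.41, and 3 members were below the filter on all 7 arrays. The part of such cells in the rise of H2-Ob was not tested. Markers of CD8 T and NK cells, plasma cells, erythroid cells and platelets, and stromal cells gave no called gene, with medians of -0.23, 0.05, -0.05 and -0.14. The T cell identity list had none called of 11 (median -0.16), and its sums were 31523 to 35574 and 23570 to 37866.

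The largest falls included members of the list of genes lower in Treg cells, which was composed with earlier results of these data known. Sema4a, a semaphorin that costimulates T cells, was at 6.94, 6.65 and 7.24 in CD25+ cells and at 9.11, 8.99, 9.66 and 9.51 in CD25- cells. The groups lay far apart, and Sema4a fell 5.18-fold (2.37 on the log2 scale, SE 0.33, adjusted p = 0.00135). Tdrp was at 7.60, 7.68 and 7.60 against 9.77, 9.98, 10.00 and 9.26, a fall of 2.12 (SE 0.35, adjusted p = 0.00583). Lypd6b, of the Ly6 family, was at 5.74, 5.82 and 5.68 against 7.20, 7.93, 8.18 and 7.79, at least 4.08-fold lower (adjusted p = 0.00135). Il1rl2, the receptor of interleukin-36, was at 5.00, 5.04 and 5.00 against 7.13, 6.74, 6.76 and 6.46, at least 3.38-fold lower (adjusted p = 0.000495). Dapl1, a gene of naive T cells, fell at least 3.86-fold (adjusted p = 0.0384), a call lost without the dim arrays (adjusted p = 0.234). Together with Il7r, Slamf6 (a fall of 0.91, adjusted p = 0.0111) and Enc1, these made 8 of 21 genes of the list that were called lower. None was called higher, though 6 of the 21 differences were positive. Enc1 lies outside the naming rule and lost its call without the dim arrays (adjusted p = 0.25) and without CD25+ replicate 2 (0.224), CD25- replicate 3 (0.0521) or CD25- replicate 4 (0.0665). The median of the list was -0.83. In the Treg signature 9 of 35 genes were called higher and none lower, and the median was 0.66. Of the 35 differences 27 were positive. The 9 were Foxp3, Il2ra, Ikzf4, Tnfrsf18, Gpr83, Itgae, Itgb8, Il10 and Gzmb. Both lists were composed with earlier results of these data known, so they are not independent evidence of direction.

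Fasl, the death ligand of activated and cytotoxic T cells, was at 9.07, 8.27 and 7.77 in CD25+ cells and at 11.03, 10.25, 10.39 and 9.23 in CD25- cells. It fell 3.62-fold (1.86 on the log2 scale, SE 0.33, adjusted p = 0.0111), while its fellow member of the cytotoxic list, Gzmb, rose. The other 10 of 12 genes in that list were not called, with Nkg7 at -1.04 ± 0.33 and Gzmk at -0.57 ± 0.32. Pde7a, a phosphodiesterase that degrades cyclic AMP, was at 10.21, 9.73 and 10.15 against 11.05, 11.09, 11.16 and 11.66. It fell by 1.21 (SE 0.23, adjusted p = 0.0174), a call lost without the dim arrays (adjusted p = 0.146). With the mean of its 7 probe sets the difference was -0.50 (adjusted p = 0.453). Pde3b, a related enzyme, had a larger difference with a larger error, -1.71 ± 0.45 (adjusted p = 0.109), and was not called. Sema4a and Pde7a were the 2 genes called lower among 14 phosphodiesterases and semaphorins. Further falls past the threshold and without overlap were those of Atp8b4 (a phospholipid flippase), Esm1 (a secreted proteoglycan), Man1c1 (a mannosidase of N-glycan trimming), Rnf144a (a ubiquitin ligase), Dsp (desmoplakin, of cell junctions), Mfsd6, Fam78a and Tex15. They lay between 1.87 (Atp8b4) and 1.32 (Tex15) on the log2 scale. Atp8b4, Rnf144a, Dsp and Fam78a lost their calls without the dim arrays, at adjusted p of 0.0869, 0.186, 0.128 and 0.0926.

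Outside the naming rule, 20 called genes rose by 0.66 to 1.56 and 19 fell by 0.73 to 1.33. From these, some with known roles were chosen after their values were seen. Sesn1, a stress-induced inhibitor of the kinase complex mTORC1, was at 11.75, 11.52 and 11.58 against 10.62, 10.33, 10.53 and 10.03. Its rise of 1.24 ± 0.18 (adjusted p = 0.00147) kept its call without each array in turn and without the dim pair (adjusted p = 0.0105). The ubiquitin ligases Cbl and Nedd4l rose by 1.30 ± 0.28 and 1.26 ± 0.26, and each lost its call without CD25+ replicate 2 (adjusted p = 0.308 and 0.279) and without CD25+ replicate 3 (0.124 and 0.147). Nedd4l lost it without the dim arrays as well (adjusted p = 0.129). Cbl lost it also without CD25- replicate 2 (adjusted p = 0.0535) and Nedd4l without CD25- replicate 4 (adjusted p = 0.0668). Cd72, a receptor of B cells, rose at least 2.37-fold (1.24 ± 0.24, adjusted p = 0.0158), beside the B cell sums given above. It was not called without CD25+ replicate 2 (adjusted p = 0.162) or 3 (adjusted p = 0.118). Casp1, the protease that processes interleukin-1 beta, fell by 0.82 (SE 0.18, adjusted p = 0.0458), a call lost without the dim arrays (adjusted p = 0.186). Casp1 was also not called without any 1 CD25+ array or CD25- replicate 2 or 3 (adjusted p = 0.0555 to 0.324).

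Lists of genes that mark activation, division or helper subsets gave few or no calls. With 0.624% of all genes tested called, lists of this size would hold few or none, so this says little about the programmes. None of 24 T cell receptor signalling genes, 27 immediate early and NF-kB genes, 41 cell cycle genes, 22 interferon-induced genes or 16 genes of cholesterol and fatty acid synthesis was called. Their medians were -0.05, 0.18, 0.20, -0.09 and -0.17, beside -0.05 for all genes. The smallest p of each list belonged to Themis (-0.83 ± 0.20), Ier5 (0.62 ± 0.22), Mcm4 (-0.65 ± 0.28), Gbp3 (0.63 ± 0.20) and Idi1 (0.64 ± 0.24), and Themis had an adjusted p of 0.0319 with the replicate block. Of 23 anergy and tolerance genes 1 was called higher (Ndrg1, 1.21 ± 0.26, adjusted p = 0.0369), and it lost its call without the dim arrays (adjusted p = 0.328). Egr2 (-0.63 ± 0.24) and Egr3 (1.00 ± 0.43), induced by receptor signals in anergic cells, differed in sign, and neither was called. None of 18 inhibitory and costimulatory receptors was called. Ctla4, which competes with CD28 for its ligands, was among the brightest genes in both groups, at 13.77, 13.62 and 13.36 against 13.38, 12.98, 11.69 and 12.17 (1.03 ± 0.51). None of 11 Th1, 8 Th2 or 9 Th17 genes was called. Ifng was at 10.63, 11.23 and 10.81 against 11.68, 12.09, 11.60 and 11.55, which did not overlap but missed the threshold at -0.84 ± 0.28 (adjusted p = 0.231). The smallest p of the other helper lists belonged to Il4 (-0.58 ± 0.16) and Ccr6 (1.01 ± 0.31). Slamf6 was the only called gene of 13 in the follicular helper list, where Tox2 had the largest difference (-1.85 ± 0.55, adjusted p = 0.171). Of 25 effector genes 3 were called higher (Il10, Gzmb and Fgl2), and of 16 naive genes 2 were called lower (Il7r and Dapl1).

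In the list of the interleukin-2 receptor and STAT5, Il2ra rose, Il7r fell and the other 17 genes were not called. Socs2, a feedback inhibitor induced by STAT5, was at 9.21, 9.69 and 9.63 against 8.21, 8.19, 6.83 and 9.01 and did not overlap. Its difference of 1.45 ± 0.34 had an adjusted p of 0.0622, which became 0.00554 with the replicate block and 0.0183 without the dim arrays. Il2 itself was near the filter, at 5.86, 5.86 and 6.43 against 6.51, 6.89, 7.03 and 6.76. All its CD25+ values lay below all its CD25- values (-0.75 ± 0.18, adjusted p = 0.0586 and 0.0276 with the block). Rasgrp2 (-0.83 ± 0.19) and Itga6 (0.75 ± 0.17) likewise missed the threshold by little, at adjusted p of 0.0558 and 0.0518, and passed it with the block, at 0.0222 and 0.0352.

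**Figure D4:**
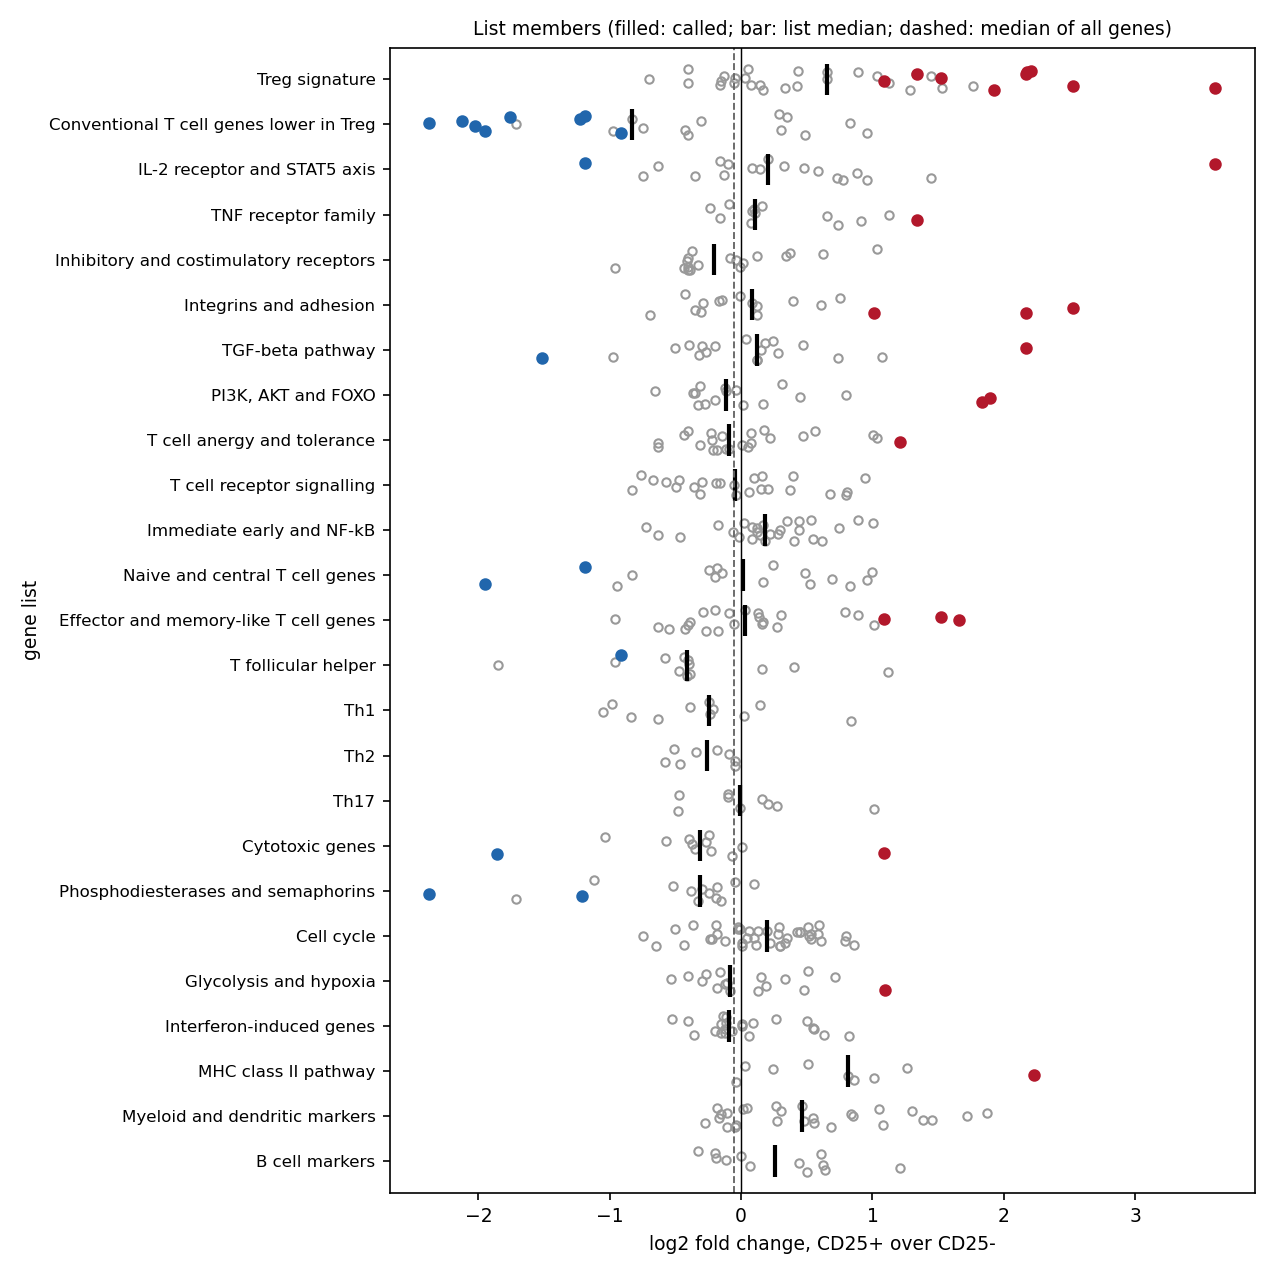
Log2 fold change of CD25+ over CD25- cells for the tested members of 25 gene lists, with called members filled (red higher, blue lower), the median of each list as a bar and the median of all genes, -0.05, as a dashed line. The Treg signature holds 9 filled points above 0 and the list of genes lower in Treg cells 8 below 0. Both were composed with earlier results of these data known, so their counts are no contrast with other lists. The cell cycle and T cell receptor lists hold none, where 0.624% of all genes tested were called.

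The change between CD25+ and CD25- cells was set against that between homeostatic Foxp3-GFP+ and Foxp3-GFP- cells, gene by gene, as a difference of differences. It differed for 60 of 12502 genes (0.48%), 36 more positive and 24 more negative here. Against the change between lamina propria Treg and Tconv cells it differed for 119 genes (0.952%), 50 more positive and 69 more negative. No array is shared by these comparisons. Of the 78 called genes, 16 that rose and 13 that fell were also called that way in the homeostatic comparison, where 300 genes were called (2.4%). In the lamina propria 17 and 20 were, of 375 called (3%), and none was called in the opposite direction in either. Among the 78, the change differed from the homeostatic one for 4 genes and from the lamina propria one for 8.

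Besides Foxp3, Neb rose less here than in either experiment, by 2.23 ± 0.34 against the homeostatic change (adjusted p = 0.00263) and by 2.32 ± 0.38 against the lamina propria one (adjusted p = 0.00383). Both groups of this experiment and the Foxp3-GFP- and Tconv groups lay below the filter for Neb, so the sizes of these differences are not exact. Gzmb rose by 1.09 here, from CD25- cells near the filter. It rose by 3.76 ± 0.25 in the homeostatic cells, where Foxp3-GFP+ cells stood at 12.41, a difference of -2.67 ± 0.34 (adjusted p = 0.000465). Itgb8 differed by 0.09 ± 0.39 between the homeostatic groups, both of which lay below the filter, and by 6.31 ± 0.47 in the lamina propria. The rise of Itgb8 here was 4.14 ± 0.60 smaller than the latter (adjusted p = 0.000999), with CD25- and Tconv cells below the filter. Its difference from the homeostatic change missed the threshold (2.08 ± 0.53, adjusted p = 0.108). The change of Il10 was 0.09 ± 0.35 in the homeostatic cells and 4.08 ± 0.43 in the lamina propria. Both homeostatic groups lay near the filter for Il10, at means of 6.54 and 6.45, where a fall could hardly be measured. The change here differed from the homeostatic one by 1.43 ± 0.48 (adjusted p = 0.327), which was not called, and from the lamina propria one by -2.56 ± 0.54 (adjusted p = 0.0251), which was 0.158 without normalization, 0.0546 without CD25+ replicate 2 and 0.0719 without CD25+ replicate 3. Pde7a fell less here, by 1.64 ± 0.34 against the homeostatic change (adjusted p = 0.034) and 2.62 ± 0.38 against the lamina propria one (adjusted p = 0.00114). The former was no longer called without CD25+ replicate 1 (adjusted p = 0.0732), CD25+ replicate 3 (0.0984), CD25- replicate 1 (0.053), 2 (0.0626) or 3 (0.0535), or both arrays numbered 1 (0.106). With cyclic loess normalization (adjusted p = 0.0511) and with the mean of probe sets (0.0579) it was not called either. Tex15 fell here and was below the filter in both lamina propria groups, at 5.44 and 5.03, where a fall could not be measured. The fitted difference of -1.74 ± 0.31 (adjusted p = 0.00625) is therefore not exact. Ldlrad4 fell here and differed by 0.71 ± 0.36 in the lamina propria, with CD25+ and Tconv cells below the filter, a difference of -2.22 ± 0.45 (adjusted p = 0.0187). The call for Ldlrad4 was lost without CD25+ replicate 2 (adjusted p = 0.0574). Casp1, named after its values were seen, is the eighth such gene and fell by 2.41 in the lamina propria.

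The 5 smallest p of each difference belonged to 9 genes, none of them called in this experiment. Ryr1, a calcium release channel, differed by -0.19 ± 0.17 here, with all 7 arrays between 4.89 and 5.49, below the filter, so that a change here could not be measured. It fell by 3.08 (SE 0.18) in homeostatic and by 2.76 (SE 0.22) in lamina propria cells, and the fitted differences, which are not exact, were 2.89 ± 0.25 (adjusted p = 9.68e-06) and 2.58 ± 0.28 (adjusted p = 7.51e-05). Arfgef3, Lbp and Tnfsf14 fell in the homeostatic comparison, giving differences of 3.32 ± 0.30, 1.65 ± 0.18 and 3.12 ± 0.37, with both groups of this experiment below the filter for all 3. Cd55, an inhibitor of complement, rose there by 1.54 ± 0.18 and differed by -0.69 ± 0.17 here (a difference of -2.23 ± 0.25). Il17a, the cytokine of Th17 cells, was at 6.63 to 7.01 on all 7 arrays, not far above the filter, and differed by -0.10 ± 0.25. In the lamina propria it fell by 4.20 (SE 0.33) from a Tconv mean of 11.32, a difference of 4.11 ± 0.42 (adjusted p = 6.79e-05). Ky (-3.75 ± 0.33), Snx9 (-2.46 ± 0.26) and Ikzf2 (-2.28 ± 0.25) rose more in the lamina propria. Ikzf2 encodes Helios, a relative of Eos that is frequent in Treg cells of thymic origin. It was at 11.87, 11.87 and 11.89 in CD25+ and at 11.12, 11.13, 11.43 and 11.23 in CD25- cells, a small difference without overlap that missed the threshold (0.65 ± 0.15, adjusted p = 0.0527). The change of Klrg1 also lay below that in the lamina propria, with a difference of -4.58 ± 0.56 (adjusted p = 0.000238), and its difference from the homeostatic change did not pass (adjusted p = 0.363).

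**Figure D5:**
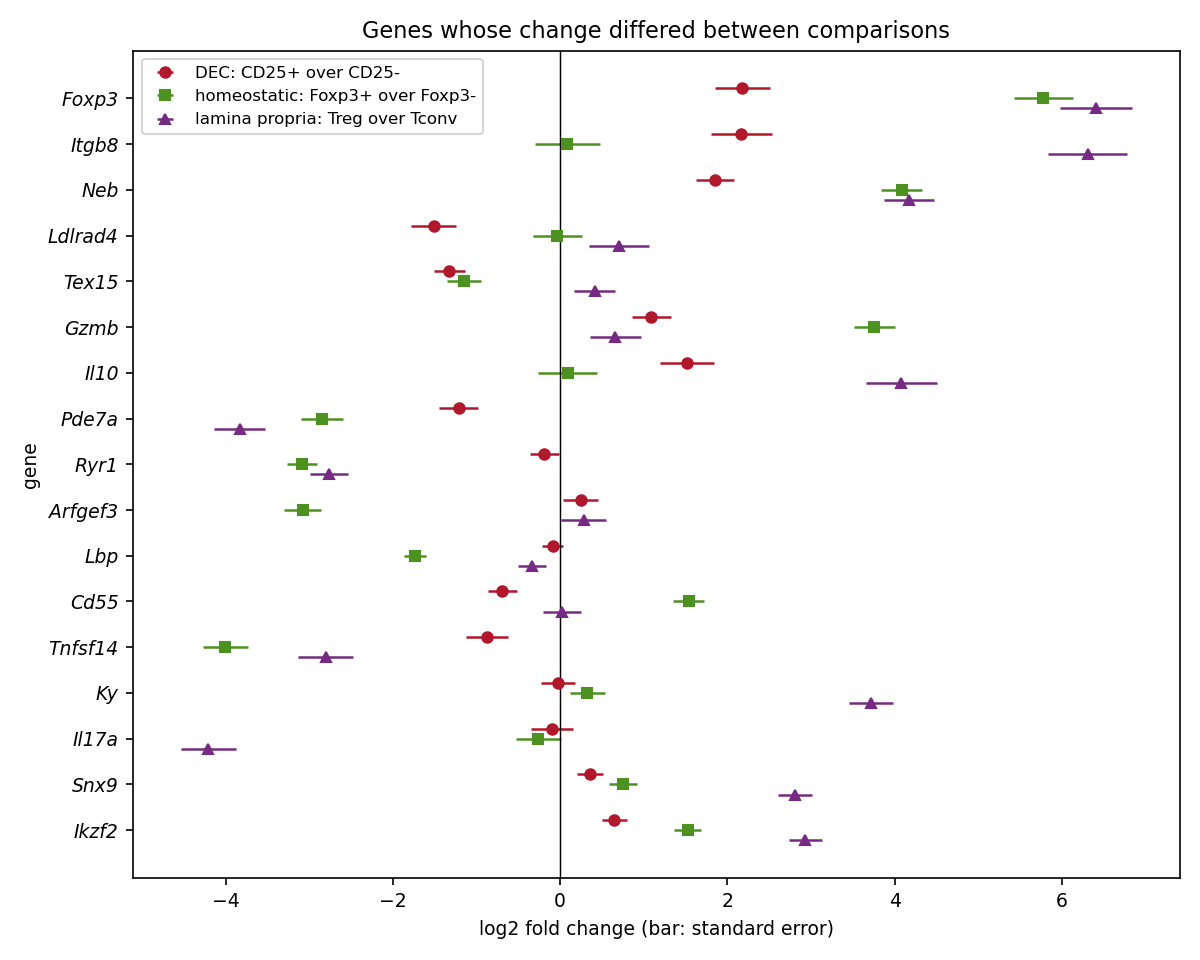
Log2 fold change with standard error of 17 genes in 3 comparisons: CD25+ over CD25- cells after DEC-HAPeptide, homeostatic Foxp3-GFP+ over Foxp3-GFP- cells, and lamina propria Treg over Tconv cells. Foxp3 moves by 2.18 in the first and by 5.78 and 6.41 in the others, and Ryr1 and Il17a lie near 0 in the first.

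Promoter sequences were looked at because Il2ra and Foxp3 belong to genes on which the factor STAT5, activated by interleukin-2, is known to act, and FOXO factors are known to act on Il7r. RefSeq promoters (GRCm38.p6), from 250 bases before to 50 after a gene's start, were searched on both strands for TTCNNNGAA, the core of STAT sites, and for GTAAACA, the core of forkhead sites. Promoters were found for 27 of the 41 genes called higher and 30 of the 37 called lower. TTCNNNGAA was in 6 of 29 promoters of genes called higher (20.7%), 4 of 41 of genes called lower (9.76%), 881 of 12867 of genes tested (6.85%) and 2726 of 32851 in all (8.3%). GTAAACA was in 1 of 29 (3.45%), 1 of 41 (2.44%), 366 of 12867 (2.84%) and 1199 of 32851 (3.65%). Il2ra itself held no TTCNNNGAA, Il7r no GTAAACA and 1 of the 2 Foxp3 promoters neither. A match is a description of letters and not a bound site, the counts are small, and no test was made. Windows of 20 bases on either side of the match (capitals), read 5′ to 3′ along the gene's strand, are shown for described genes with a match before the start, to set rising genes beside those that fell.
Foxp3, chrX:7580324-7580372, plus strand: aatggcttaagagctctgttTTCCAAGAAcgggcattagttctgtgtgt
Tnfrsf18, chr4:156026203-156026251, plus strand: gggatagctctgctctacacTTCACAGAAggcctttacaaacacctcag
Fgl2, chr5:21372617-21372665, plus strand: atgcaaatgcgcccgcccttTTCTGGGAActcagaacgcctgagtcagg
Icam1, chr9:21015878-21015926, plus strand: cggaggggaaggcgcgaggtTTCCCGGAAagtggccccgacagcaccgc
Il7r, chr15:9529990-9530038, minus strand: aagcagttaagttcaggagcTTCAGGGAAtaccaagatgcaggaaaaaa
Fam78a, chr2:32065095-32065143, minus strand: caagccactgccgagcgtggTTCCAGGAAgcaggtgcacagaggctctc
Dapl1, chr2:59484469-59484515, plus strand: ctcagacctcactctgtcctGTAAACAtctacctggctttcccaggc
The matches begin 139 bases before the start in Foxp3, 99 in Tnfrsf18, 36 in Fgl2, 42 in Icam1, 142 in Il7r, 212 in Fam78a (in 1 of its 4 promoters listed) and 164 in Dapl1. Matches after the start lay at 37 bases in Gzmb (TTCNNNGAA) and 22 in Sesn1 (GTAAACA), both of which rose. Matches to each motif thus lay in promoters of genes that rose and of genes that fell.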

How the data were processed

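The values are the linear intensities of 45101 probe sets on 23 Affymetrix arrays that the authors deposited, computed with RMA per the submitters' processing notes, whose version is not given in the sources used here. They were converted to log2 intensity, whereas the deposited values are linear, and quantile normalized over all 23 arrays. Of the probe sets, 34945 had 1 gene symbol, 932 several and 9224 none (controls included). The brightest probe set stood for each of 18193 genes, 9010 of which have several. A gene was tested if at least 1 group mean exceeded the median of all values (6.27 in log2, an intensity of 77.0), which left 12502. Where the lower group lay below that level, a fold is a lower bound computed from the measured means.

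A 9-group model was fitted with limma 3.58.1 in R 4.3.3 and checked on simulated data. The simulated arrays had independent noise with the same spread on every array and skipped normalization. That check therefore does not cover arrays of unequal quality. Adjusted p-values are Benjamini-Hochberg over all genes tested. The labels do not say whether replicates came from separate transfers, so p-values measure the spread between pooled samples only. Each gene's spread was estimated over all 9 groups, with 14 residual degrees of freedom, where the 7 arrays alone leave 5. It therefore rests largely on the other experiments. Their arrays correlated with their own group at a mean r of 0.963 to 0.991, against 0.933 to 0.964 for the CD25- arrays. The labels do not state a pairing by replicate number either. The deviations of same-numbered CD25+ and CD25- arrays from their group means correlated at 0.41, 0.47 and 0.36, and those of other combinations at -0.59 to 0.11. Deviations within a group cancel out, so positive values for the same numbers push those of the other combinations down. The numbers were treated as pairs in an added block, in which CD25- replicate 4 has no partner. This pairing rests on the same arrays, so calls gained with the block are no separate support.

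The genes named are the markers and Klrg1, the 15 genes that rose most and the 15 that fell most of those called without overlap, up to 4 members of each list by p together with any called member moving against its list, the 5 smallest p of each difference between experiments, and the 3 brightest markers of other cell types. Members and lists were chosen with earlier results of these data known. Alternatives were other normalizations, filters and probe set rules, array weights, the replicate block, the 7 arrays alone, each array left out, the dim pair left out and, chosen after seeing the data, both arrays numbered 1 left out. Some listed genes were not analysed here.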

Additional observations from a re-analysis of the deposited data

Results flagged for a closer look

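Among the 4 CD25- arrays, 4 of 76 genes examined had 1 array far from the other 3, where chance gives about 5% of groups. Gpr34 lay at 4.42 on replicate 4. Tnfrsf18 lay at 9.19 on replicate 3, one of the dim arrays. The Y-linked transcripts Kdm5d and Eif2s3y lay at 3.54 and 2.86 on replicate 1, as they were low on CD25+ replicate 1.

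Several changes differed from those of the other experiments by a test of the difference itself, with limma and adjustment over all genes. Against the homeostatic change, the differences were -3.60 for Foxp3, -2.23 for Neb, -2.67 for Gzmb, 1.64 for Pde7a, 2.89 for Ryr1, 3.32 for Arfgef3, 1.65 for Lbp, -2.23 for Cd55 and 3.12 for Tnfsf14. Against the lamina propria change, they were -4.23 for Foxp3, -4.14 for Itgb8, -2.32 for Neb, -2.22 for Ldlrad4, -1.74 for Tex15, -2.56 for Il10, 2.62 for Pde7a and 2.58 for Ryr1. They were -3.75 for Ky, 4.11 for Il17a, -2.46 for Snx9 and -2.28 for Ikzf2. For Neb, Ryr1, Arfgef3, Lbp and Tnfsf14 both groups of this experiment lay below the filter, and for Tex15 both lamina propria groups did. For Foxp3, Itgb8, Ldlrad4, Cd55 and Ky at least 1 group did, so the sizes of these differences are not exact. Strain, host, tissue, time and sort marker differ together between the experiments and cannot be told apart.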

How the results depend on the processing

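None of the 78 called genes changed direction where tested. For the 77 whose arrays did not overlap, leaving out or weighting arrays could hardly change it. The larger side of the calls did change, and the medians of 18 of 32 lists, all within 0.25 of 0 in the reported fit, changed sign under at least 1 setting. The count of 78 called genes (41 higher, 37 lower) lay between 25 and 279 when single arrays were left out, with 16 to 141 higher and 8 to 138 lower. It was 8 (4 and 4) with the 7 arrays fitted alone, 504 (218 and 286) with array weights and 276 (159 and 117) without both arrays numbered 1. Without normalization beyond RMA 12 genes were lower. With the replicate block, which pairs arrays of the same number, 144 genes were called (69 higher, 75 lower), 116 differed from the homeostatic change and 191 from the lamina propria change. The first difference had 60 genes, 32 to 79 with single arrays left out and 428 with array weights. The second had 119 genes, 74 to 166 with single arrays left out. The 27 called members of the lists became 14 to 37 with single arrays left out, 8 with the 7 arrays alone and 64 with array weights. Of 50 results for single genes, the block ended the call of Il10 and changed no other. Without the dim arrays 11 calls ended, with the mean of probe sets 7 of 49 and with the 7 arrays alone 28 of 37. In that last fit 5 residual degrees of freedom remain, the spread comes from these 7 arrays only and other genes pass the filter. The causes of the other shifts were not tested. The number of arrays limits the precision, and genes near the filter have only a bound.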
